A study of Xenopus laevis with 4 samples.

Results

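The widest called peaks of captured methylated DNA were examined in pre-ZGA (zygotic genome activation) embryos of the frog Xenopus laevis. The method was MBD-seq, which pulls down DNA fragments with methylated CpG on a methyl-CpG-binding domain (MBD) fusion protein and sequences them. Wide blocks were selected on the called width alone, as peaks on the 18 chromosomes that span at least 3000 bp, and this rule gave 182 blocks among 131295 peaks in replicate 1 and 821 blocks among 222749 peaks in replicate 2, 1003 of 354044 in all. Of the 4 samples, 2 are MBD capture libraries and 2 are Input, that is uncaptured genomic DNA. All were made from pools of 250 wild-type (WT) whole embryos per replicate at the 256-cell stage, 4.5 h after fertilization, with no other treatment. The replicates were independent, per the methods of the study. The Input libraries entered through the peak calling and were not analysed here on their own.

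In vertebrates most DNA methylation sits on the cytosine of CpG dinucleotides and is copied to the new strand at replication by maintenance methyltransferases, so that it can pass through the rapid cleavage divisions. Methylation is the usual state of repeats, gene bodies and intergenic sequence, while CpG-rich promoters are mostly free of it. The genome of Xenopus laevis is allotetraploid, with an L and an S subgenome that came from different parent species, and each L chromosome has a homeologous S chromosome. Genes for tRNAs and the smallest rRNA are transcribed by RNA polymerase III and occur in vertebrates both singly and in tandem arrays of many copies.

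The measure is the position of peaks, and the lists give neither a tag count nor a methylation level for a peak. Replicate 1 was called from 17645240 tags and replicate 2 from 23909019 tags. The caller was set to a peak size of 500 bp and a minimum distance between peaks of 1000 bp. Some separate blocks have edges less than 1000 bp apart, so this setting was not a gap across which peaks were always joined. How the caller extended a peak to a wide block is not read from the lists, and a block can hold short unenriched gaps. Both replicates belong to a single group, and blocks or chromosomes are not independent samples, so the values below are descriptions without p-values. Positions are 1-based, in genome version 10.1.

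Wide blocks were a small part of each list. They made up 0.139% of the peaks and 1.05% of the peak bases in replicate 1, against 0.369% and 2.51% in replicate 2. Covered sequence was 0.859 Mb in replicate 1 and 3.77 Mb in replicate 2. Replicate 2 had 1.35 times the tags of replicate 1, 1.70 times the peaks, and 4.51 times the wide blocks. The approximate capture efficiency given by the caller, as a percent of tags in peaks, was 22.2% in replicate 1 and 42.3% in replicate 2. The parts of depth and of capture efficiency in the difference between the lists were not tested. The number of blocks per list was 501.5 ± 452 (SD, n = 2).

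Width chose the blocks, so their widths are given for description. Widths ran from 3003 to 33662 bp in replicate 1, with a median of 3648.5 bp, and from 3000 to 51463 bp in replicate 2, with a median of 3700 bp. The median over all peaks was 501 bp in both lists. Most blocks lay close to the limit, with 110 of 182 (60.4%) and 503 of 821 (61.3%) under 4 kb. A width of 10 kb or more was reached by 10 blocks in replicate 1 and 31 in replicate 2, and 20 kb or more by 2 and 9 blocks. The 5 blocks just inside the limit measured 3003 to 3008 bp in replicate 1 and 3000 to 3003 bp in replicate 2. The 5 peaks just outside it measured 2987 to 2994 bp in replicate 1 and 2996 to 2999 bp in replicate 2. In replicate 1, those just inside included blocks in pkhd1.L and in LOC121393946. Peaks on the unplaced scaffolds numbered 8 and 22, and 0 of them were wide blocks in either list.

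The first question was whether a block called in one replicate was also called in the other, which had no part in choosing it. In replicate 1, 175 of 182 blocks (96.2%) overlapped a replicate 2 peak of any width, against 61.8% over all replicate 1 peaks. In replicate 2, 691 of 821 blocks (84.2%) overlapped a replicate 1 peak, against 36.2% over all replicate 2 peaks. A wide interval meets a peak more easily than a narrow one, and the share rose with width well before the limit. Peaks of 501 bp overlapped in 55.3% of cases in replicate 1 and 28.0% in replicate 2, and peaks of 2000 to 2999 bp in 90.7% and 76.3%.

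The share of bases covered by the other replicate did not rise with width in the same way. Replicate 2 peaks covered 66.9% of the bases of replicate 1 blocks, against 54.7% of the bases of all replicate 1 peaks. Replicate 1 peaks covered 34.7% of the bases of replicate 2 blocks, against 29.7% of the bases of all replicate 2 peaks. For peaks of 2000 to 2999 bp, just under the limit, the shares were 67.3% in replicate 1 and 37.8% in replicate 2. The blocks were thus not covered more fully than the next narrower class in either list. The classes of greatest width parted in the plot of shares by width class. Blocks of 10 kb or more were covered over 78.8% of their bases in replicate 1 (10 blocks) and over 25.3% in replicate 2 (31 blocks).

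**Figure D1:**
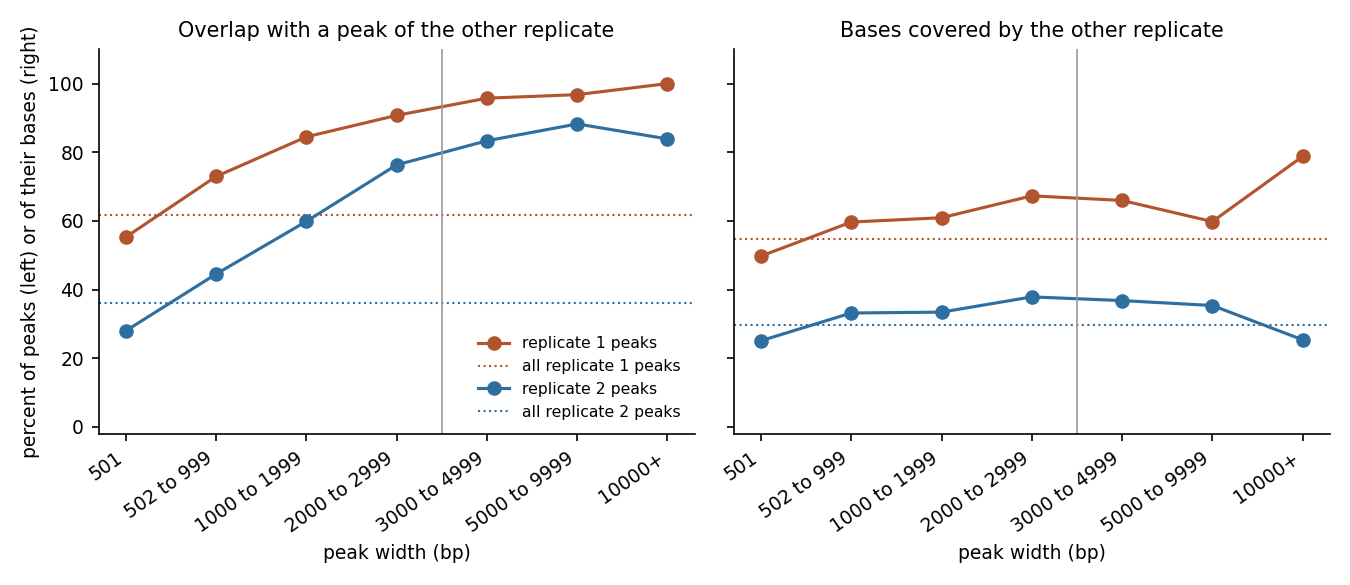
Share of peaks that overlapped a peak of the other replicate (left, percent of peaks) and share of their bases covered by it (right, percent of bases), by peak width in bp. Points right of the vertical line are wide blocks, and dotted lines give the value over all peaks of that list. Overlap reached 96.8% in replicate 1 and 88.2% in replicate 2 at 5000 to 9999 bp, while base coverage was 59.8% and 35.3%.

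A minority of the blocks of each list met a wide block of the other list. Replicate 1 had 182 blocks to meet the 821 of replicate 2, which limits the share in replicate 2. In replicate 1, 80 blocks (44.0%) overlapped a wide block of replicate 2, 95 overlapped narrower peaks only and 7 overlapped no peak. In replicate 2, 80 blocks (9.74%) overlapped a wide block of replicate 1, 611 (74.4%) overlapped narrower peaks only and 130 (15.8%) overlapped no peak. Blocks with a block on the other side were covered over 89.6% of their bases in replicate 1 and 86.6% in replicate 2. Those with narrower peaks only were covered over 46.4% and 33.3%. The width of the peaks in the other list defined these groups, so a difference in this direction follows in part from the grouping. When overlapping blocks of both lists were joined, 917 loci resulted. Of these, 74 held a block in both replicates, 102 in replicate 1 only and 741 in replicate 2 only. The bases common to blocks of both lists came to 373 kb, which was 43.4% of the block bases of replicate 1 and 9.89% of those of replicate 2. Over the 74 loci with a block in both, replicate 2 had more block bases in 39, and Spearman's rho of block bases between the lists was 0.57, a description across loci that are not independent.

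Peaks of the other replicate took a larger share of bases inside the blocks than around them. Replicate 2 peaks took 66.9% of bases inside replicate 1 blocks, 25.3% in the first 1 kb outside, 11.6% at 2 to 5 kb and 8.23% at 50 to 100 kb, against 5.48% of all sequence. Replicate 1 peaks took 34.7% of bases inside replicate 2 blocks, 9.33% in the first 1 kb outside, 5.28% at 2 to 5 kb and 3.79% at 50 to 100 kb, against 2.98% of all sequence. The order was the same with chromosome 5S left out, where the shares inside were 75.6% and 32.9%. No such profile was made for narrower peaks, so the drop is not read as particular to wide blocks. Over all peaks, 54.7% of bases in replicate 1 and 29.7% in replicate 2 were covered by the other list.

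**Figure D2:**
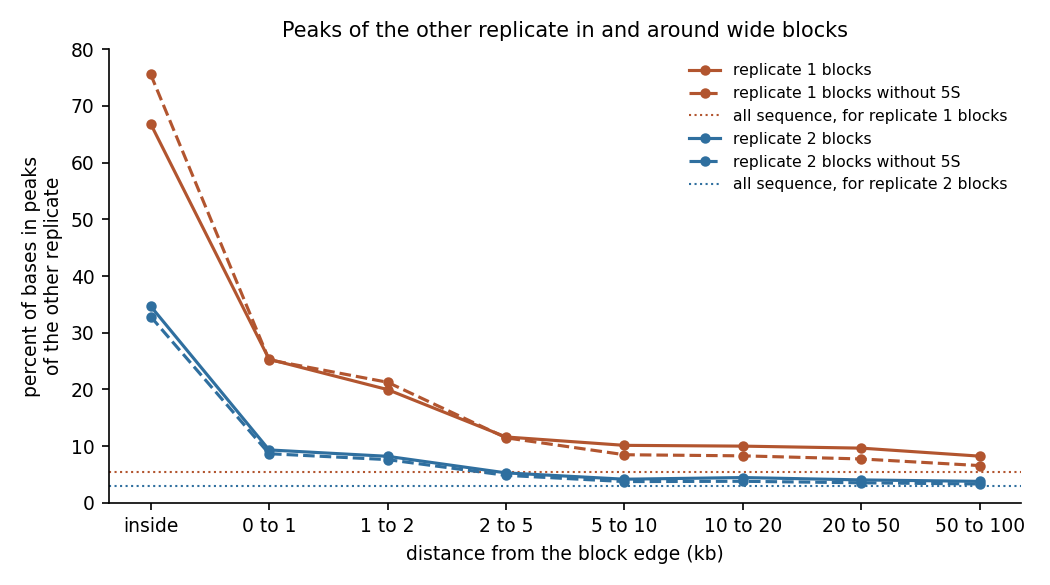
Percent of bases in peaks of the other replicate, inside wide blocks and by distance in kb from the block edge, for replicate 1 blocks (182) and replicate 2 blocks (821). Dashed lines leave out chromosome 5S, and dotted lines give the share over all chromosomes. Both lines drop from 66.9% and 34.7% inside to 25.3% and 9.33% within 1 kb.

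Part of the wide blocks lay in runs. The nearest other block lay at a median of 1633 kb in replicate 1 and 889 kb in replicate 2, while the nearest peak of any width lay at 6.22 and 3.66 kb over all peaks. When blocks with gaps of up to 100 kb were taken as a run, 77 of 182 replicate 1 blocks (42.3%) fell in 12 runs and 177 of 821 replicate 2 blocks (21.6%) in 63 runs. The 4 largest runs held 58 blocks in replicate 1 and 37 in replicate 2. Of 2750 windows of 1 Mb, 115 held a replicate 1 block and 630 a replicate 2 block. The 10 fullest windows held 76 (41.8%) and 70 (8.53%) of the blocks. The larger share in replicate 1 rested on chromosome 5S. With 5S left out, 24 of 120 replicate 1 blocks (20%) and 153 of 770 replicate 2 blocks (19.9%) lay in runs.

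The run with the closest match between replicates lay on chromosome 3S, at chr3S:11325540-11554691, between ckap4.S, which encodes a membrane protein of the endoplasmic reticulum, and sparc.S, which encodes a secreted matrix protein. It held 13 blocks in each list. In replicate 1, 12 of the 13 had a block of replicate 2 and 87.6% of the block bases were covered by replicate 2. In replicate 2, 13 of 13 had a block of replicate 1 and 93.8% of the bases were covered. Over the stretch of 229 kb, peaks covered 61.5% of bases in replicate 1 and 57.3% in replicate 2. The widest replicate 1 block, of 33662 bp at chr3S:11325627-11359288, was met by 4 replicate 2 blocks that covered 91.3% of it together. The widest replicate 2 block of the run, of 18734 bp, lay wholly within a replicate 1 peak. Annotated in the stretch were 4 protein-coding genes and 1 pseudogene. Joined over both lists, the widest shared locus was part of this run and spanned 37560 bp.

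Chromosome 5S carried the longest runs of replicate 1, and these matched replicate 2 less closely. The run at chr5S:54791658-55174888 had 20 blocks in replicate 1, of which 20 overlapped a replicate 2 peak but 3 a replicate 2 block, with 41.6% of the bases covered. The run at chr5S:69366069-69782926, between des.2.S and pnisr.S, had 18 blocks in replicate 1, of which 14 overlapped a peak and 7 a block, with 48.3% of the bases covered. Replicate 2 placed 10 blocks in this second stretch, at chr5S:69417647-69784165, and 63.3% of their bases were covered by replicate 1. Both stretches held no protein-coding, tRNA, rRNA or snRNA gene and no pseudogene. In the first, peaks covered 42.3% of bases in replicate 1 and 23.9% in replicate 2, and in the second 34.1% and 23.6%. The number of peaks of any width was close between the lists there, with 70 in replicate 1 and 72 in replicate 2 in the first stretch, and 64 and 65 in the second.

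The widest isolated block with a match lay at chr5S:143224984-143250725, 14662 bp from zfp282l.S and near the end of the chromosome. It measured 23657 bp in replicate 1 and 25742 bp in replicate 2. Replicate 2 covered 100% of the replicate 1 block and replicate 1 covered 97.3% of the replicate 2 block. It stood first in the list of replicate 1.

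**Figure D3:**
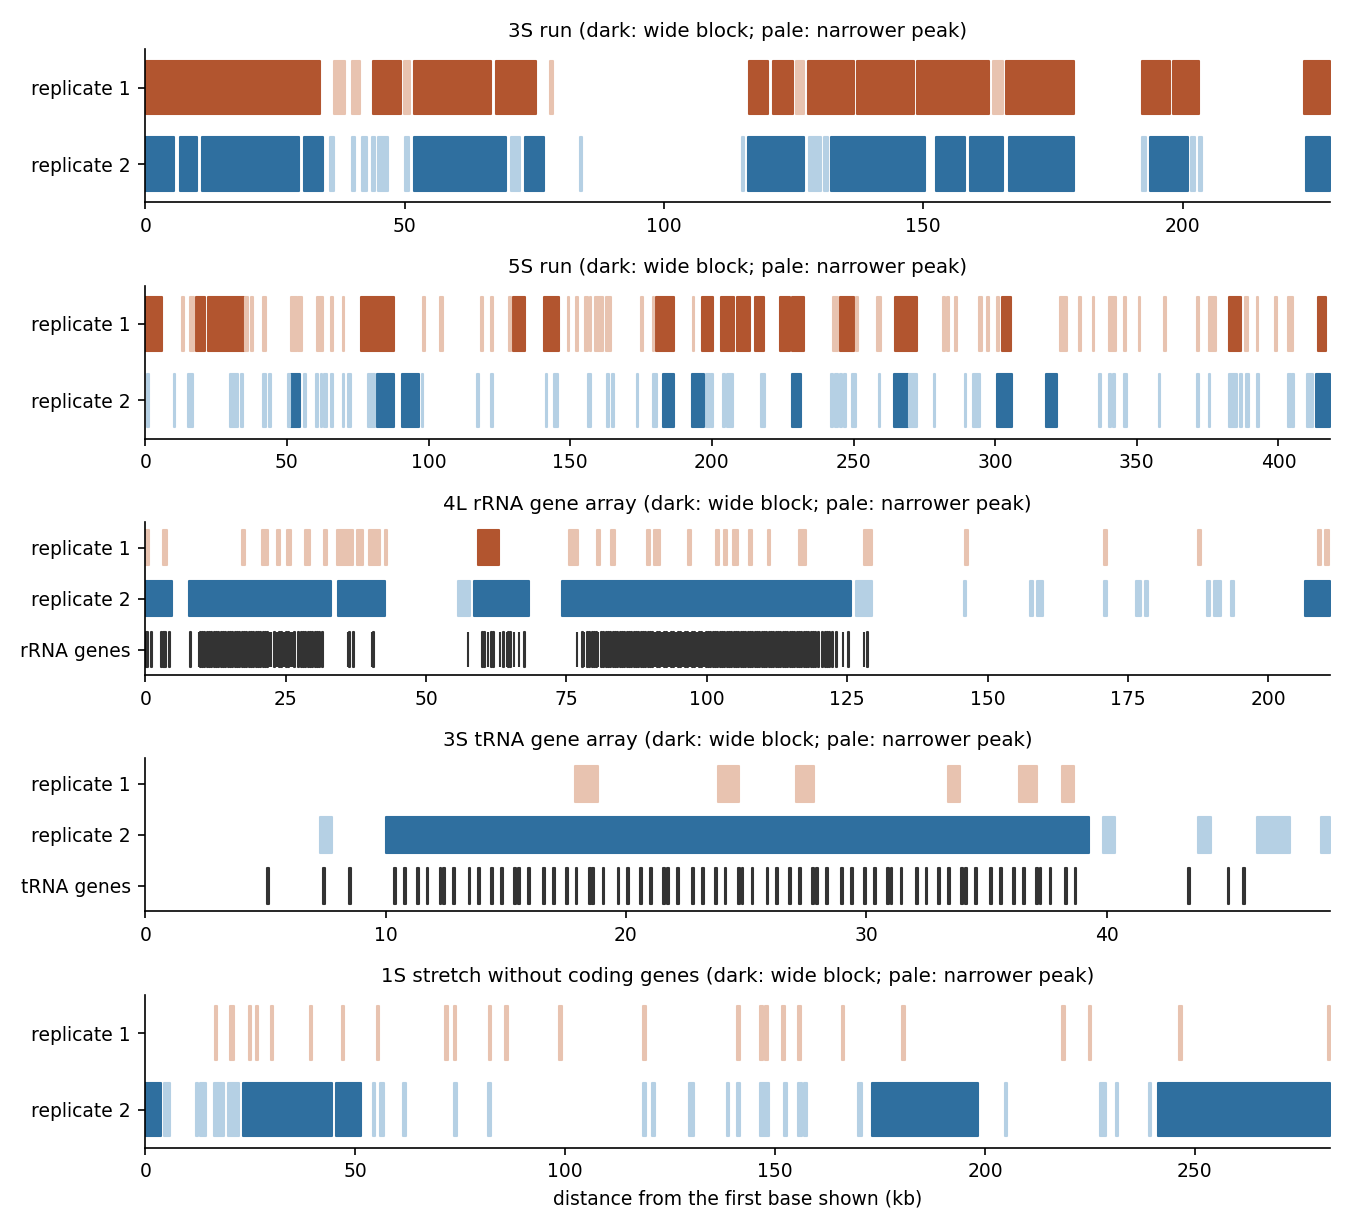
Peaks of both replicates along 5 stretches, as distance in kb from the first base shown, with wide blocks dark, narrower peaks pale and rRNA or tRNA genes as black bars. The 3S run has dark blocks in both rows. The 5S run has 18 blocks in replicate 1 and 10 in replicate 2, and 7 of each overlap a block of the other list. Over the gene arrays and the 1S stretch wide blocks come mainly from replicate 2.

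Blocks over arrays of small RNA genes came almost wholly from replicate 2. Replicate 2 had more blocks of every kind, so shares are given beside the counts. Blocks with tRNA, rRNA or snRNA genes numbered 1 in replicate 1 (0.549% of its blocks) and 37 in replicate 2 (4.51% of its blocks). The 37 held 345 kb, or 9.15% of the block bases of replicate 2. Replicate 1 peaks covered 15.6% of these bases, against 36.6% in the other 784 replicate 2 blocks. Of the 37, 28 overlapped a replicate 1 peak and 1 a replicate 1 block. Over all 44438 annotated genes, 2.34% had a base in a replicate 2 block and 0.115% in a replicate 1 block, and 56.8% and 43.2% had a base in a peak of any width. How reads from near-identical copies were placed is not given in the sources used here, so single copies within an array cannot be told apart, and the part of read placement in these blocks was not tested.

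The largest array of rRNA genes lay on chromosome 4L. The annotation places 244 of its 375 rRNA genes between chr4L:154733224 and chr4L:154861725, a span of 129 kb, and 348 of the 375 have a length of 119 bp. The table does not say which rRNA they encode. In replicate 2, 241 of the 244 lay in 5 wide blocks and 244 of 244 in a peak. In replicate 1, 5 of the 244 lay in a wide block and 55 in a peak. The widest block of either list, of 51463 bp at chr4L:154807224-154858686, held 145 rRNA genes, with a median of 312 bp from one start to the next. Replicate 1 called 12 separate peaks inside it, which covered 17.6% of its bases. The neighbouring replicate 2 block of 25311 bp held 70 rRNA genes and was covered over 16.9%. The single replicate 1 block of the array, of 3615 bp at chr4L:154792415-154796029, held 5 rRNA genes and 6 pseudogenes and lay wholly within a replicate 2 block. The 131 rRNA genes elsewhere in the genome had 0 genes in a replicate 2 block, beside 2.34% of all genes, and nothing is read from this count. In a replicate 2 peak of any width lay 259 of the 375 rRNA genes, so some of those elsewhere were in a peak.

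Transfer RNA genes lay in wide blocks of replicate 2 and not of replicate 1. Of 2612 tRNA genes, 388 (14.9%, against 2.34% of all genes) lay in 28 blocks of replicate 2 and 0 in blocks of replicate 1. Peaks of any width held 809 (31.0%) in replicate 2 and 206 (7.89%) in replicate 1, which was below the shares over all genes, 56.8% and 43.2%. Short genes meet a peak less easily than long ones, and the median tRNA gene had 73 bp, against 12588 bp over all genes. The 28 blocks were on 7 chromosomes, with 13 on 1L, and 3S held the largest number of these genes, 173. Replicate 1 peaks covered 12.9% of the bases of these blocks, and at most 44.6% of any of them. In 6 of the 28 there was no replicate 1 peak. Genes with 26 of the 52 annotated combinations of amino acid and anticodon were present in the blocks, led by tRNA-Lys(CUU) with 44 of 93 genes, tRNA-Gly(GCC) with 42 of 82, tRNA-Ile(UAU) with 23 of 41 and tRNA-Pro(UGG) with 21 of 39.

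Some of the tRNA blocks with most genes followed repeat units of several genes. For others no unit with a fixed number of genes was found, although an order of genes can still recur in them. A block of 11888 bp on 3S with 21 genes is an example. Its genes for isoleucine (UAU), proline (UGG) and proline (AGG) recurred in this order, with proline (AGG) absent from some copies. The block first in the list of replicate 2, of 29280 bp at chr3S:120686294-120715573, held 65 tRNA genes in a repeated order of 7 genes, for lysine (UUU), methionine (CAU), tyrosine (GUA), glycine (UCC), glutamate (UUC), alanine (AGC) and phenylalanine (GAA), with a median of 3101 bp per unit. All 65 genes kept this order, and 6 replicate 1 peaks covered 14.7% of the block. A second block of 21677 bp on the same chromosome, at chr3S:121104731-121126407, held 46 genes of the same 7 kinds, mostly in the reverse order along the chromosome. There 94.9% of genes matched the gene 1 unit further on, with 3050 bp per unit, and the block was covered over 5.98%. A unit of tRNA-Lys(CUU) and tRNA-Gly(GCC) filled blocks of 17819 bp and 11152 bp on 3L, with 38 and 24 genes and 947.5 and 948 bp per unit, and a block of 8200 bp on 2S with 16 genes. Genes matched the gene 1 unit further on in 100% and 90.9% of cases in these 3L blocks and in 92.9% on 2S. A unit of 3 genes, for proline (AGG), isoleucine (UAU) and proline (UGG), filled a block of 16185 bp at chr3S:122723520-122739704, with 30 genes and 1633 bp per unit. On 1L, 8 blocks in chr1L:4743843-4847730 held 61 tRNA genes, for valine, histidine, glutamate and arginine, inside the protein-coding gene LOC121393935. Peaks covered 57.0% of this stretch in replicate 2 and 16.6% in replicate 1.

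Small nuclear RNA genes, whose products act mainly in splicing, gave 4 blocks of replicate 2 and 0 of replicate 1. They held 37 of 377 snRNA genes (9.81%), and the table does not name the kind of snRNA. A block of 16521 bp at chr1S:180068545-180085065 held 18 genes of 164 bp with a median spacing of 590 bp, and a nearby block of 6612 bp held 7 more. Replicate 1 called no peak in either of these. A block of 8697 bp on 8S held 9 genes with a spacing of 847 bp and was covered over 30.5%. Of 579 snoRNA genes, 0 lay in a wide block of either replicate, and of 211 V segments of antigen receptor genes likewise 0, beside 0.115% and 2.34% of all genes in replicate 1 and replicate 2. The 1041 genes behind the 2.34% include 388 tRNA, 241 rRNA and 37 snRNA genes, and the share of coding genes was 0.81%. Nothing is read from these counts of 0. In a peak of any width lay 4 (0.691%) and 6 (1.04%) of the snoRNA genes, which have a median of 98 bp, against 43.2% and 56.8% of all genes.

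Very wide blocks of replicate 2 also lay in sequence without annotated genes, as 19 of the 31 blocks of 10 kb or more did, while 9 of the 31 held tRNA, rRNA or snRNA genes. On 1S, 12 blocks between chr1S:116537641 and chr1S:120536909 covered 198 kb, and 9 of them reached 10 kb. Replicate 1 had 0 blocks there, and its peaks covered 5.57% of the bases of the 12. The widest, of 40886 bp at chr1S:116755665-116796550, was covered over 2.51% by 2 replicate 1 peaks. A block of 25274 bp at chr1S:116687462-116712735 overlapped a lncRNA gene and was covered over 1.98%. A run of 4 blocks at chr4S:55490686-55579747, between ndrg4.S and csnk2a2.S, and another of 4 at chr6L:93910689-93931341 met no replicate 1 peak. Of the 31 replicate 2 blocks of 10 kb or more, 24 were covered over less than 20%, 6 over 90% or more, and 5 overlapped no replicate 1 peak. All 10 replicate 1 blocks of that width overlapped a replicate 2 peak and 7 overlapped a replicate 2 block.

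**Figure D4:**
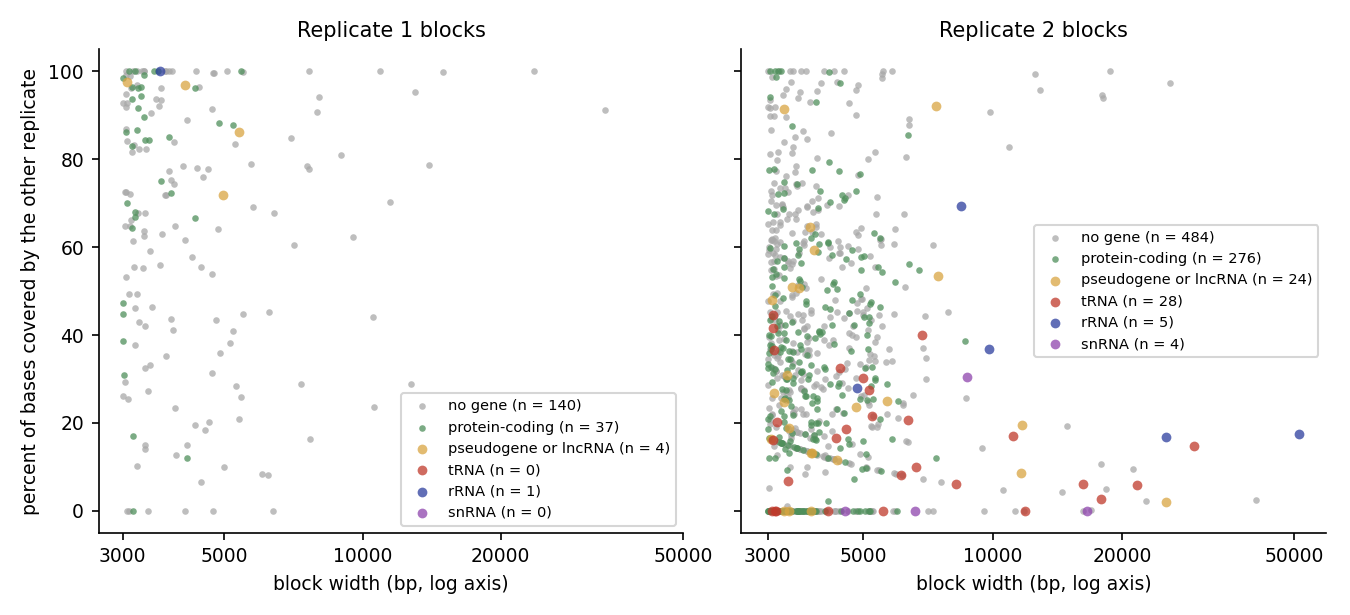
Each point is a wide block, with its width in bp on a log axis and the percent of its bases covered by peaks of the other replicate, colored by the annotated genes it overlaps. In replicate 2 the 28 tRNA blocks lie at 44.6% or lower, and the 51463 bp rRNA block lies at 17.6%.

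The position of wide blocks relative to genes differed between the replicates. In replicate 1, 140 of 182 blocks (76.9%) overlapped no gene of any type, against 55.8% of all its peaks. In replicate 2 these were 484 of 821 blocks (59.0%), against 55.3% of all its peaks. Without chromosome 5S the shares of blocks were 68.3% and 57.5%. Block midpoints fell inside a protein-coding gene in 20.3% of replicate 1 blocks, against 41.2% of all replicate 1 peaks, and in 33.0% of replicate 2 blocks, against 41.7% of all replicate 2 peaks. The median distance to the nearest coding gene was 32.4 kb for replicate 1 blocks and 4.04 kb for all its peaks, and 10.3 kb for replicate 2 blocks and 3.60 kb for all its peaks. A distance over 100 kb was found for 34.1% of replicate 1 blocks, against 12.4% of all its peaks, and for 12.5% of replicate 2 blocks, against 12.0% of all its peaks. These values rested in part on 5S. Without it the median distance was 18.2 kb for replicate 1 blocks and 3.69 kb for all its peaks, and 8.40 kb for replicate 2 blocks and 3.31 kb for all its peaks. Over 100 kb away then lay 15.8% of replicate 1 blocks, against 12.1% of all its peaks, and 9.87% of replicate 2 blocks, against 11.7% of all its peaks, which turned the direction in replicate 2.

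Genes of all types with a base in a block numbered 51 of 44438 (0.115%) in replicate 1 and 1041 of 44438 (2.34%) in replicate 2, with 34 in both. Protein-coding genes were 37 of 34461 (0.107%) and 279 of 34461 (0.81%), with 20 in both. Pseudogenes were 9 and 86 of 1834, and lncRNA genes 0 and 9 of 3912. Most of these pseudogenes lay at the rRNA gene array on 4L. Its 5 replicate 2 blocks held 9, 11, 16, 18 and 16 of them in order along the chromosome, and its replicate 1 block held 6. The pseudogene counts therefore say little about pseudogenes elsewhere. Protein-coding genes with a block were long, with a median of 102147 bp in replicate 1 and 66364 bp in replicate 2, against 17192 bp over all coding genes, and a longer gene has more room for a block. A block took a median of 3.29% and 5.16% of the gene. Wholly inside blocks were 1 coding gene in replicate 1 and 4 in replicate 2, and none of these was in a block in both.

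Among the 20 coding genes with a block in both replicates, 10 had a gene name. Block bases were 5230 bp in replicate 1 and 3879 bp in replicate 2 for tead4.L, a transcription factor of the Hippo pathway, and 3591 and 6400 bp for phex.S, an endopeptidase of phosphate balance. They were 3343 and 3423 bp for tnni3.S, cardiac troponin I, and 3287 and 3171 bp for cert1.L, a ceramide transfer protein. The sialyltransferase gene st8sia2.S had 3237 and 3114 bp, and kcnt2.S, a sodium-activated potassium channel, 3221 and 4716 bp. The others were cpxm2.S, btbd11.L, oxr1.S and pkhd1.L, with 3003 to 3790 bp in replicate 1 and 3013 to 7242 bp in replicate 2. In tnni3.S the block took 11.0% of the gene in replicate 1 and 11.2% in replicate 2, the largest share among the 10. A block in a single replicate was not matched in width by the other list, though it can overlap narrower peaks there. In replicate 2 alone, ywhah.S, which encodes a 14-3-3 protein, was the named coding gene with over 50% of its length in blocks (51.5%).

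Gene families of development and cell structure were counted beside the share over all coding genes, which was 0.107% in replicate 1 blocks and 0.81% in replicate 2 blocks. At shares this low a count of 0 in a family of this size is no result about the family. Wide blocks of either replicate overlapped 0 of 56 hox, 0 of 34 sox, 0 of 25 pou, 0 of 81 fox, 0 of 30 histone and 0 of 141 ribosomal protein genes. Replicate 2 blocks overlapped 4 of 68 cadherin and protocadherin genes, namely cdh8.S, cdh12.L, cdh13.S and cdh18.S of cell adhesion, 1 of 58 collagen genes (col27a1.L) and 1 of 191 znf genes (znf687.S), and replicate 1 blocks 0 of each. The 4 cadherin genes are long, from 265728 bp for cdh8.S to 579800 bp for cdh12.L, against the median of 17192 bp over all coding genes. Olfactory receptor (18), NLR (4) and fucolectin (2) genes had 0 in both. Peaks of any width overlapped 17234 of 34461 coding genes (50%) in replicate 1 and 21638 (62.8%) in replicate 2. Of the families, they overlapped 0 and 1 of 56 hox genes, 6 and 11 of 34 sox genes, 7 and 8 of 25 pou genes, 23 and 28 of 81 fox genes, 6 and 6 of 30 histone genes and 30 and 58 of 141 ribosomal protein genes in replicate 1 and replicate 2. Cadherin and protocadherin genes had 53 and 58 of 68, collagen genes 43 and 50 of 58, and znf genes 104 and 129 of 191. Of a list of genes of early development and H3K4 methylation, sox3.L had the nearest block, a tRNA block of replicate 2 at 0.144 Mb, and ccnb1.L had blocks at 2.30 Mb in both replicates. The homeologs of pou5f3.2, sox2, sox9 and cxxc1 in the table lay 0.533 Mb or more from a block.

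The next comparison set S against L chromosomes. Of the blocks, 124 of 182 (68.1%) in replicate 1 and 437 of 821 (53.2%) in replicate 2 were on S chromosomes, against 48.2% and 47.9% of all peaks and 45.6% of the sequence. In replicate 2, S chromosomes carried 0.348 ± 0.0650 and L chromosomes 0.255 ± 0.0418 blocks per Mb (SD over 9 chromosomes each), and S was higher in 9 of 9 homeologous pairs, by 0.0927 ± 0.0596 (SD over pairs). The smallest of the 9 differences was 0.0102, in pair 1, and the largest 0.188, in pair 3. In replicate 1, S chromosomes carried 0.0990 ± 0.135 and L chromosomes 0.0384 ± 0.0168 blocks per Mb, and S was higher in 4 of 9 pairs, by 0.0606 ± 0.137 on average, less than the SD over pairs. Pair 5 alone contributed 62 blocks on 5S and 6 on 5L. Without it the difference in replicate 1 was 0.0185, with S higher in 3 of 8 pairs, and in replicate 2 it was 0.0854, with S higher in 8 of 8. All peaks were also denser on S, in 9 of 9 pairs in both lists. Blocks as a percent of the peaks of a chromosome were higher on S in 4 of 9 pairs in replicate 1 and 7 of 9 in replicate 2.

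**Figure D5:**
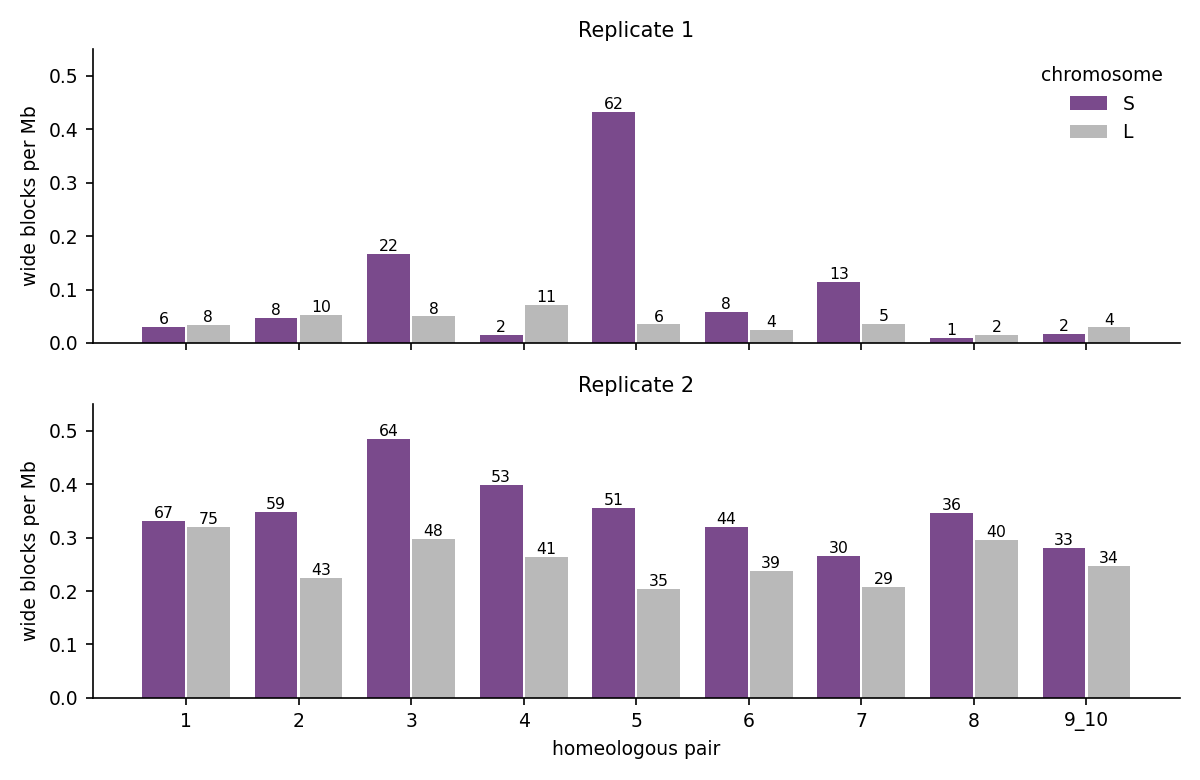
Wide blocks per Mb on the S and L chromosome of each homeologous pair, in replicate 1 (above) and replicate 2 (below), with the number of blocks over each bar. Chromosome 5S stands out in replicate 1 with 62 blocks, and in replicate 2 the S bar is the higher in 9 of 9 pairs.

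Chromosome 5S stood apart in replicate 1, with 62 of 182 blocks (34.1%), and 3S followed with 22, while the other chromosomes had 1 to 13. In replicate 2, 5S had 51 of 821 blocks (6.21%), and the chromosomes ranged between 29 on 7L and 75 on 1L. Replicate 2 covered 53.5% of the bases of replicate 1 blocks on 5S, against 75.6% on the other chromosomes together. Replicate 1 covered 61.9% of the bases of replicate 2 blocks on 5S, against 32.9% on the others.

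The stretch between homeologs of the genes that flank a run was also examined. For the runs of 3 or more blocks this gave 19 distinct intervals, of which 17, spanning 80.1 to 6836 kb, held 0 blocks of either list, and 15 of the 17 were under 1 Mb. Of all 2750 windows of 1 Mb, 115 held a replicate 1 block and 630 a replicate 2 block, so that most windows of this size held 0, and nothing is read from the 17 intervals. For the 3S run, the interval between ckap4 and sparc on 3L spans 616 kb and held 0 blocks in either replicate. For the 5S run by des.2 and pnisr, the interval on 5L spans 169 kb and likewise held 0. The interval on 4L for the replicate 2 run at ndrg4 and csnk2a2 spans 154 kb and held 0. For the 5S runs near 55 Mb the flanking genes on 5L lie 21064 kb apart, and that interval held 1 replicate 1 block and 6 replicate 2 blocks.

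Position along the chromosome was compared last. The median distance to the nearer chromosome end was 49.4 Mb for replicate 1 blocks and 34.3 Mb for all its peaks, and 40.0 Mb for replicate 2 blocks and 34.3 Mb for all its peaks. Within 2 Mb of an end lay 4 replicate 1 blocks (2.20%), against 1.90% of all its peaks, and 27 replicate 2 blocks (3.29%), against 1.91% of all its peaks. This zone makes up 2.63% of the sequence. Within 5 Mb of an end lay 5 replicate 1 blocks (2.75%), against 5.67% of all its peaks. In replicate 2 these were 53 blocks (6.46%), against 5.67% of all its peaks. The direction against all peaks thus turned in replicate 1 between 2 and 5 Mb. The larger distance in replicate 1 rested on 5S, since without this chromosome the medians were 36.0 Mb for its blocks and 34.3 Mb for all its peaks, and in replicate 2 they were 38.2 Mb for its blocks and 34.3 Mb for all its peaks.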

How the data were processed

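MBD-seq peak lists of 2 MBD capture libraries were used. Read pairs were mapped by the authors with bowtie (version 4.2 in the submitters' processing notes) to version 10.1 of the genome, from which HOMER 4.11 called peaks in histone style, separately for each replicate against its own Input. Per the file headers, a peak needed a Poisson p of 0.001, an enrichment of 4-fold over Input at a p-value of 0.0001, and 12 tags in replicate 1 or 15 in replicate 2, with at most 1 tag counted per bp. Each peak carries a deposited score of 1, which was not used. Width was end minus start of the deposited intervals.

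Overlap required 1 bp. Runs joined blocks with gaps of up to 100 kb. Each chromosome was taken to end with its last peak or gene. Genes came from the RefSeq table of the same version, with 44438 genes on the chromosomes and without strand. Blocks described singly were the 10 widest of each list, the 10 widest shared loci and the 5 runs with most blocks. Named genes overlap such blocks or have a name and a block in both lists. The 1S, 4S and 6L stretches and the other tRNA and snRNA blocks described were chosen after their values were seen, as were the alternatives without chromosome 5S and, for position, without a replicate. The blocks and gene lists were chosen with earlier results of these data known. Sequence content was planned and not analysed here, nor were kmt2b and vomeronasal receptor genes, for which no symbol matched. Groups came from the labels, and no test was run, since both lists belong to 1 group of 2. Functions were tested on simulated intervals. Python 3.11.15, numpy 2.4.6, pandas 2.3.3 and matplotlib 3.10.9 were used.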

Additional observations from a re-analysis of the deposited data

How the results depend on the processing

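Values here are means over both lists. The number of blocks, 501.5, became 2126.5 at a minimum width of 2000 bp, 104 at 5000 bp, 182 with equal numbers of the widest peaks, and 7653 when peaks with gaps up to 2 kb were joined first, and single lists gave 182 to 821. The share of blocks that overlapped the other list, 90.2%, became 49.3% when at least 50% of the bases had to be covered. The share in runs, 31.9%, became 53.7% at 5000 bp. The S minus L difference, 0.0766 blocks per Mb, was 0.233 at 2000 bp, 0.0287 at 5000 bp, 0.0479 with equal numbers, 0.0519 without pair 5 and 0.0356 with runs counted once, and as a share of bases, in another unit, S exceeded L by 0.0477%. Single lists gave 0.0606 to 0.0927. Genes with a base in a block, 546 on average, were 1213.5 at 2000 bp and 345 at 5000 bp, and single lists gave 51 to 1041. The share near an end, 2.74% within 2 Mb, was 4.60% within 5 Mb, where 5.67% of all peaks lay in each list. Single lists gave 2.75% and 6.46% there, on either side of that share. The wider limits and the joining of peaks change the set of blocks by construction, and the cause of the other shifts was not tested. Single lists aside, 14 other shares and differences moved by less than the SD between the lists, and 5 other counts stayed within 1.5 times. That SD comes from 2 lists that differ widely, so a smaller move is no sign of stability. The share in runs, for example, became 19.9% without chromosome 5S. The mean S minus L difference kept its sign in each setting. S was higher in 8 of 9 pairs at 2000 bp, 7 of 9 with equal numbers and 6 of 9 at 5000 bp. Without pairs 3 and 5 the difference was 0.00437 in replicate 1, with S higher in 2 of 7 pairs. In replicate 2 it was then 0.0708, with 7 of 7. The lists carry no tag count per peak, so depth within a block is unknown. No paired analysis was possible because both captures form a single group, and Input was not analysed here.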
